A study of Mus musculus with 48 samples.

Results

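Bmal1-KO hepatocytes were compared with wild-type (WT) hepatocytes at 30 h, the third of 6 sampled times. The comparison used the 8 libraries titled with 30, 4 KO and 4 WT, of 48 in the series. All came from AML12 cells, an immortalised mouse hepatocyte line, and RNA was read by bulk Smart-seq3, a sensitive full-length method. Every group, WT included, had dexamethasone in its growth medium and received a 1-h pulse of dexamethasone to set the clock. The titles give 30 without a unit, and it was read as hours. The start of the clock time, the way Bmal1 was removed and whether the KO line is 1 clone are not in the labels. Nor do they call the 4 libraries of a group separate cultures. Each p-value therefore measures spread among libraries, which may be technical.

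BMAL1 is a transcription factor that pairs with CLOCK and switches on genes through E-box elements. Among their targets are the Per, Cry and Nr1d genes, whose proteins feed back on the pair and make its activity rise and fall over about a day. Dexamethasone, a synthetic glucocorticoid, aligns the clocks of cultured cells, and liver clocks are known for timing metabolic genes. Removal of BMAL1 is known to stop this loop.

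The deposited rows carry no gene names, so a feature is a row of the count table, and rows are numbered from 1 after the header. Neither Bmal1, the other clock genes nor markers of hepatocytes and other liver cell types could be looked up, and the KO label was not checked against Bmal1 itself. In each genotype all 4 libraries at 30 h share a library number, 16 for WT and 18 for KO, so in every value below the genotype and this number cannot be told apart. Of the 15503 features with a count at 30 h, 8617 passed the filter on low counts and were tested, and they held 97.2% of the counts of the 8 libraries. Levels are given as CPM, in which counts are scaled by library size and TMM factors. Changes are log2 of KO over WT with their standard error (SE), and a feature is called where the edgeR adjusted p is under 0.05.

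The 8 libraries differed in depth within each genotype. WT replicates 1 to 4 held 415977, 171040, 448307 and 687523 counts. KO replicates 1 to 4 held 265267, 309572, 274421 and 691659 counts. The genotypes overlapped in depth (exact permutation p = 0.686, two-sided, 4 against 4). Drawn down to the 171040 counts of the shallowest library, the WT libraries were expected to show 11152 to 11310 features and the KO libraries 10967 to 11041. The KO libraries all lay below the WT libraries, with a mean difference of -238 features and the smallest p the design allows (exact permutation p = 0.0286, two-sided; adjusted p = 0.114 over the 4 library measures tested). The difference thus did not pass adjustment. The 100 most abundant features took 20.1% ± 0.824 of the counts in WT and 20.7% ± 0.298 in KO (SD, n = 4, exact permutation p = 0.257). Without WT replicate 4 the difference went from 0.594 to 0.984 percentage points, at an exact permutation p of 0.0286. Replicate pairs differed by more than sampling noise in each of the 12 pairs, with a chi-square of 1.21 to 3.34 per degree of freedom, so all 8 were kept as separate libraries.

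At 30 h, KO and WT cells differed in both directions, mostly by moderate factors. KO cells had more of 417 features and less of 379, which is 9.24% of the features tested, 4.84% higher and 4.4% lower (edgeR quasi-likelihood, Benjamini-Hochberg). The features that rose had a median log2 change of 0.79, or 1.73-fold, and those that fell had one of -0.87, or 1.83-fold. Among all tested features the median was -0.003 and the quartiles were -0.27 and 0.27. Calls of under 1.5-fold made up 18.1%. The median SE was 0.26 over all tested features, 0.20 among those called higher and 0.22 among those called lower. Changes that were small against their SE could not be called. The balance of rises and falls is relative to the TMM scaling. With library size alone as the scale, 347 features rose and 419 fell. DESeq2 called 269 rises and 276 falls. Without WT replicate 4, edgeR called 249 rises and 223 falls.

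Large falls outnumbered large rises. At 2-fold or more, 119 features rose (1.38% of those tested) and 148 fell (1.72%). At 4-fold or more there were 3 rises and 20 falls. The 3 large rises were scarce features, with mean levels of 9.2 to 17.9 CPM and at most 22 counts in any library. The 20 large falls reached from 10.8 to 867 CPM, and 19 of them had no overlap between the 4 WT and the 4 KO libraries. Among the 3 rises, 2 had none. Of all tested features, 6.12% had KO above WT without overlap and 5.66% had KO below, but both lists were picked for large differences in these libraries. All 23 were called in the same direction over the other 5 times, where 21.8% of all tested features were called higher and 20.9% lower. In a test for changes beyond 1.5-fold, 23 features passed as rises and 51 as falls.

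**Figure D1:**
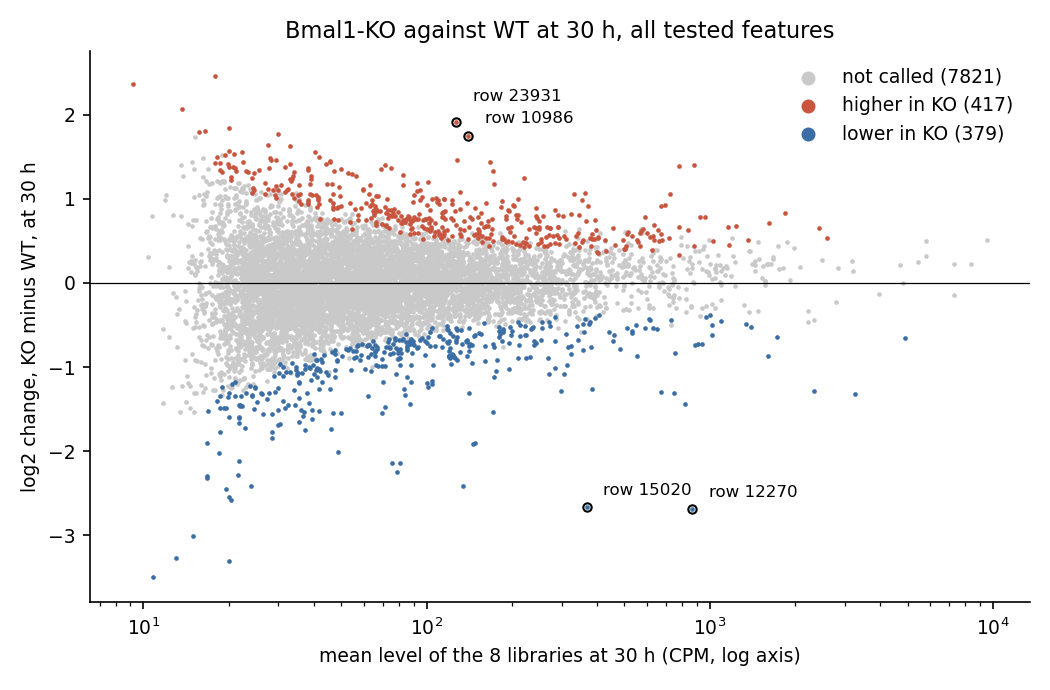
Log2 change of KO over WT at 30 h (vertical axis) against the mean level of the 8 libraries in CPM (horizontal log axis). Each point is 1 of 8617 tested features, coloured where called, and circles mark the 4 numbered rows. The 417 higher and 379 lower features spread over the whole range of levels, and rows 12270 and 15020 stand far below the other features of their abundance.

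Abundant features were called more often and with smaller changes. In the least abundant of 4 equal bands, between 9.2 and 33.1 CPM, 52 features rose and 68 fell, 5.57% of the band, with a median called change of 2.65-fold. In the most abundant band, above 108 CPM, 209 rose and 154 fell, 16.9%, with a median of 1.56-fold. The median SE fell from 0.39 in the first band to 0.17 in the last, where a feature had a median of 74.8 counts per library against 8.63. Small changes in scarce features were therefore not detectable at this depth.

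The called features carried a measurable part of the cells' RNA. The 417 that rose made up 6.33 to 7.33% of the tested counts in the WT libraries and 10.4 to 11.1% in the KO libraries. The 379 that fell made up 8.84 to 10.5% in WT and 5.11 to 5.67% in KO. These shares describe features chosen for their difference and are no test. The loss was the more concentrated side, since 10 features made 33.5% of all CPM lost and another 10 made 19.2% of all CPM gained.

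Rows are numbered by a rule that asks for a call and for groups without overlap, so these properties are given for them as a description. The fall of row 12270 was the largest under this rule. Its level was 2358, 2433, 1740 and 2232 CPM in WT replicates 1 to 4. In KO replicates 1 to 4 it was 344, 379, 352 and 292 CPM. The lowest WT library was thus more than 4 times the highest KO library, and the KO libraries were close together. The log2 change was -2.69 (SE 0.18), or 6.45-fold lower (edgeR adjusted p = 1.71e-19). With 89 to 1484 counts in a library, this row is among the better measured ones, and it ranked 60th in mean level at 30 h.

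Row 15020 fell by nearly the same factor and had the lowest p at 30 h. It stood at 689, 836, 836 and 1313 CPM in WT replicates 1 to 4. It stood at 174, 131, 135 and 146 CPM in KO replicates 1 to 4. No library of one genotype reached the range of the other, and WT replicate 4 stood above the rest of its group. The log2 change was -2.67 (SE 0.16), or 6.35-fold lower (edgeR adjusted p = 1.62e-21).

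Row 23931 showed the largest rise under the same rule. It was at 69.9, 69.7, 57.5 and 60.2 CPM in WT replicates 1 to 4. It was at 220.3, 225, 187 and 297 CPM in KO replicates 1 to 4. WT libraries were within a narrow band and every KO library lay far above it, replicate 4 most. The log2 change was 1.92 (SE 0.20), or 3.78-fold higher (edgeR adjusted p = 7.05e-11).

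Row 10986 rose next most. It was at 101, 63.9, 106 and 37.6 CPM in WT replicates 1 to 4. It was at 286, 231, 228 and 269 CPM in KO replicates 1 to 4. Here the WT libraries were the uneven group, and the highest of them was still less than the lowest KO library. The log2 change was 1.75 (SE 0.18), or 3.35-fold higher (edgeR adjusted p = 1.08e-11). Both rising rows rested on few counts in WT, 12 to 40 for row 23931 and 11 to 48 for row 10986. These rows were drawn from 286 rising and 225 falling features that met the rule, and all 4 kept their direction and call under each of 25 alternative settings.

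The most abundant called feature in each direction changed by less than the numbered rows. The most abundant feature that fell ranked 8th in level at 30 h and stood at 5677 to 7055 CPM in WT and 3813 to 4107 CPM in KO. Its groups did not overlap, and its log2 change was -0.65 (SE 0.12, edgeR adjusted p = 1.20e-04). The most abundant feature called higher ranked 17th. It stood at 2154, 1812, 2227 and 2506 CPM in WT replicates 1 to 4, and at 2489, 3696, 2883 and 3513 CPM in KO replicates 1 to 4. WT replicate 4 and KO replicate 1 overlapped, and the log2 change of 0.53 (SE 0.18) passed narrowly (edgeR adjusted p = 0.0432). It passed in 11 of 25 alternative settings, with adjusted p from 0.0011 to 1, so this rise depends on the setting. The adjusted p was 0.0734, 0.130 and 0.0689 without WT replicates 1, 2 and 3, and 0.156, 0.0513 and 0.120 without KO replicates 2, 3 and 4 (edgeR).

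**Figure D2:**
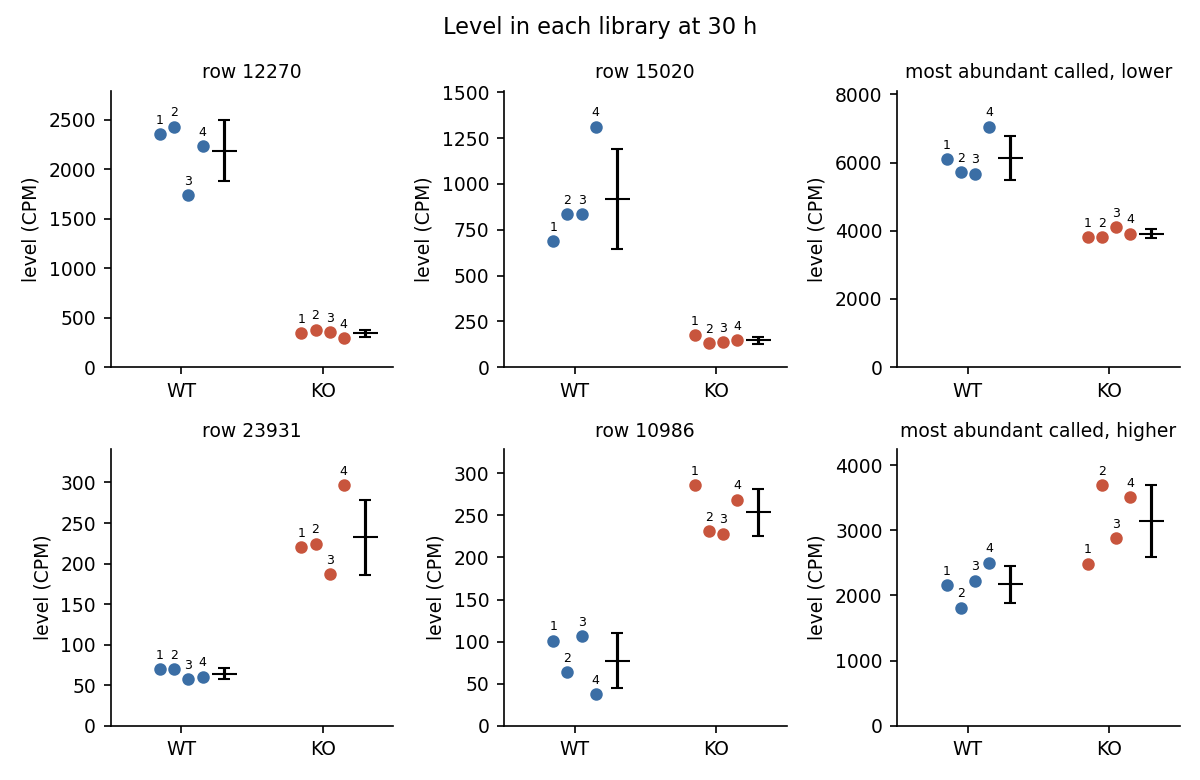
Level in CPM (vertical axes from 0) in each of the 4 WT and 4 KO libraries at 30 h, for the 4 numbered rows and the most abundant called feature in each direction. Points are libraries labelled by replicate number, and bars are mean and SD. The numbered rows were chosen for groups with no overlap. Of the other panels, the most abundant feature called lower has none either, and the most abundant one called higher overlaps at WT replicate 4 (2506 CPM) and KO replicate 1 (2489 CPM).

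Separation of the libraries was also counted directly. The CPM of the 4 WT and the 4 KO libraries did not overlap for 1015 features, 11.8% of those tested, with KO above WT for 527 and below for 488. Of these 1015 features 588 were called and 427 were not. Of the called features, 76.5% of the higher and 71.0% of the lower ones had groups that did not overlap.

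Features seen in only 1 genotype at 30 h were scarce and more often seen in WT. With 1722850 counts in the 4 WT libraries together and 1540920 in the 4 KO libraries, 69 rows had at least 5 counts in WT and none in KO, and 14 had at least 5 counts in KO and none in WT. At 10 counts or more the numbers were 8 and 0. The clearest cases were a pair of rows with 18 WT counts each. One had 5, 3, 4 and 6 counts in WT replicates 1 to 4 and the other 3, 4, 3 and 8. Both were at least 5.37-fold lower in KO, set against a floor of 3 counts over the KO group. At the other 5 times together these rows had 41 and 47 WT counts, and 1 and 5 KO counts. At those times most of the 83 rows of both lists had counts in the genotype where they were not seen at 30 h. These 83 rows were below the filter and have no test, and they were chosen by their counts at 30 h.

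The genotype difference at 30 h was then set beside that in the other 40 libraries, which the group means at 30 h do not use. One fit of all 48 libraries gave both lists, so they share the estimate of spread and the scaling. Over the other 5 times, KO had more of 1878 features and less of 1800, 42.7% of those tested. Of the 796 features called at 30 h, 719 were called in the same direction over the other 5 times, 90.3% of the 30 h list and 19.5% of the other list. The share was 90.2% for rises and 90.5% for falls, where 21.8% and 20.9% of all tested features were called in these directions. The sign was the same for 778 of the 796 (97.7%), against 72.7% of all tested features. The 8 and the other 40 libraries were also fitted apart. Then 567 of 602 calls at 30 h (94.2%) were called in the same direction over the other 5 times. There 43.1% of tested features were called, counting both directions together. The 567 made up 15.3% of the calls over the other times. At all 6 single times the sign was shared by 681 of the 796 (85.6%), against 35.8% of all tested features.

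Sizes were compared from the other side, because features picked at 30 h favour large values there. The 77 features at least 2-fold higher over the other 5 times had a median log2 change of 1.14 there and 1.02 at 30 h, and all 77 were higher at 30 h. The 164 features at least 2-fold lower had medians of -1.23 there and -1.16 at 30 h, and 162 were lower at 30 h. For changes under 1.5-fold the sign held for 87.3% of 1327 higher and 86.0% of 1184 lower features. The 30 h difference was thus close in size to that of the other times for features with large changes.

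**Figure D3:**
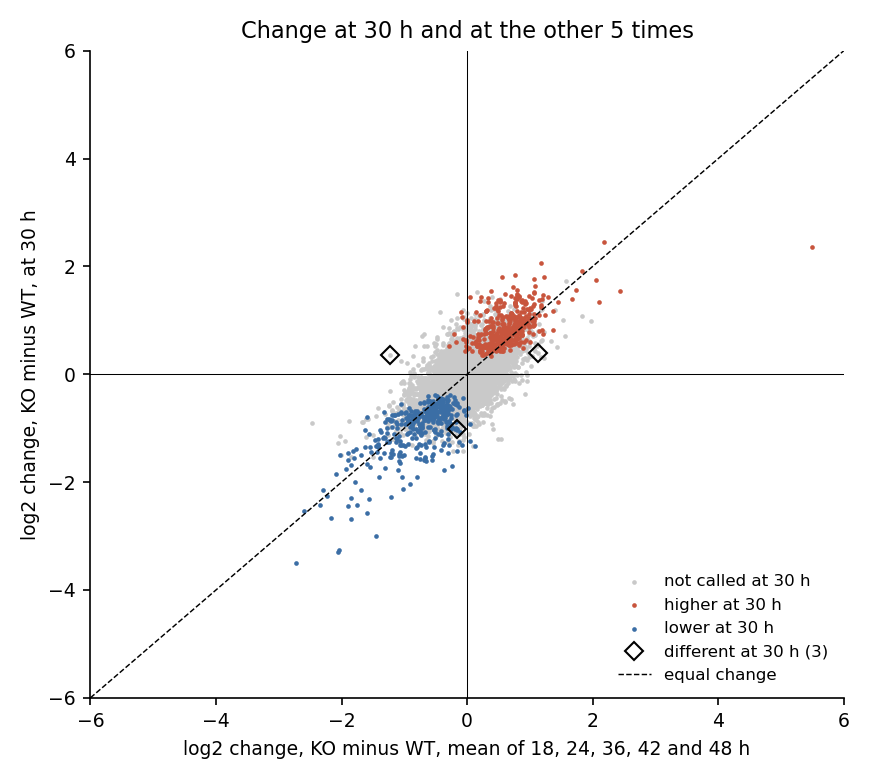
Log2 change of KO over WT at 30 h (vertical axis) against its mean over 18, 24, 36, 42 and 48 h (horizontal axis), 1 point per tested feature. The dashed line marks equal change. Of the 796 called features, which were picked for their values at 30 h, 778 have the same sign on both axes. Diamonds mark the 3 features whose change at 30 h differed from the other times. The fitted value of the point at the far right rests on 2 WT groups without a count and gives no size.

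The direction of the called features also held in their medians at single times. The features that rose at 30 h had median log2 changes of 0.56, 0.64, 0.50, 0.62 and 0.68 at 18, 24, 36, 42 and 48 h. Those that fell had medians of -0.66, -0.67, -0.58, -0.65 and -0.76 at these times. At 30 h, where both lists were picked, the medians were farther from 0, at 0.79 and -0.87. At 18 h 4.32% of tested features were called higher and 3.5% lower, at 24 h 5.73% and 4.89%, and at 36 h 2.97% and 2.55%. At 42 h the shares were 8.97% and 7.29%, and at 48 h 8.98% and 8.47%. Of the 30 h calls, 56.2% were called in the same direction at 24 h and 28.4% at 36 h. These made up 48.9% of the 24 h calls and 47.5% of the 36 h calls. The libraries at 36 h were also the shallowest, with 259432 counts on average against 407971 at 30 h and 413334 at 24 h, and the part of depth in the lower share was not tested. At 30 h alone of the 6 times 137 features were called, 73 higher and 64 lower. Of these, 69 of 137 were called in the same direction over the other 5 times in 1 contrast. Of all tested features, 21.8% were called higher there and 20.9% lower. None of the 137 passed the test of a different change at 30 h.

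Whether the genotype difference at 30 h departs from that at other times was tested directly. Against the mean of 18 and 24 h, the times with the same library numbers, 0 features passed in edgeR, DESeq2 or limma voom, and 361 had an unadjusted edgeR p under 0.05 where 430.9 would by chance. Without KO replicate 4, edgeR called 1. Against 42 h, 12 h away on the clock and in other library numbers, edgeR called 0, DESeq2 1 and limma voom 2, with 637 at an unadjusted edgeR p under 0.05. Without WT replicate 3, edgeR called 9. Against the mean of the other 5 times 3 features passed, 0.0348% of those tested, each with an edgeR adjusted p of 0.0256, and 576 had an unadjusted edgeR p under 0.05. The counts of 576 and 637 lie above the 430.9 of chance, and the 361 below it. No feature passed this test without WT replicate 4, KO replicate 3 or KO replicate 4. Without WT replicate 1, only the first of the 3 described below passed. Without WT replicate 2, 1 feature passed that was none of the 3, which stood at edgeR adjusted p = 0.0568, 0.0568 and 0.0679. None of these 3 calls therefore held in every fit with 1 library left out, and such fits use fewer samples by construction. Over 23 alternative settings the 3 differences kept their sign. In the order described below they ran from -0.995 to -0.659, from -0.814 to -0.654 and from 1.36 to 1.70.

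The first of the 3 features fell more at 30 h than at the other times. It was at 243, 302, 201 and 355 CPM in WT replicates 1 to 4 and at 139, 137, 124 and 140.3 CPM in KO replicates 1 to 4. The groups did not overlap at 30 h, and the log2 change was -1.02 (SE 0.16, edgeR adjusted p = 2.92e-06) against -0.16 (SE 0.07) over the other times. The change was -0.39 at 18 h, -0.47 at 24 h and between -0.04 and 0.11 from 36 to 48 h. Its WT mean was 215 to 275 CPM from 18 to 30 h and 141 to 165 CPM from 36 to 48 h, and the library numbers differ between these ranges of time. Its change at 30 h differed from that at 18 and 24 h by -0.59 (SE 0.20), which did not pass (edgeR adjusted p = 0.987).

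The second feature had a higher mean in KO at every time, by the smallest factor at 30 h. Its level at 30 h was 268 to 338 CPM in WT and 391 to 439 CPM in KO, with no overlap. The log2 change of 0.39 (SE 0.14) at 30 h was not called (edgeR adjusted p = 0.0574), while over the other times it was 1.13 (SE 0.06). It was 0.66 at 18 h and 0.84 at 24 h, and 1.27 to 1.54 from 36 to 48 h, under other library numbers. The difference of -0.36 (SE 0.17) from 18 and 24 h did not pass (edgeR adjusted p = 0.987). This feature also had the lowest p against 42 h, where the difference was -0.95 (SE 0.19, edgeR adjusted p = 0.0502). That difference passed in 11 of 23 alternative settings, DESeq2 and limma voom included, with adjusted p from 0.0021 to 1, so its call depends on the setting.

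The third feature had a lower mean in KO at each of the other times but not at 30 h. It was at 36.1, 11.6, 39.8 and 36.1 CPM in WT replicates 1 to 4 and at 30.9, 33.5, 48.7 and 53.2 CPM in KO replicates 1 to 4, so the groups overlapped. At 30 h the log2 change was 0.35 (SE 0.29), and over the other times it was -1.22 (SE 0.14). Against 18 and 24 h the change of this feature differed by 1.34 (SE 0.38), which did not pass (edgeR adjusted p = 0.942). With 2 to 36 counts in a library it is the least well measured of the 3. The feature with the lowest p against 18 and 24 h was scarcer still, at 1 to 16 counts, and its difference of -2.22 (SE 0.53) did not pass (edgeR adjusted p = 0.445). It passed without KO replicate 4, at -3.20 (edgeR adjusted p = 0.0364).

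The numbered rows kept their direction at all 6 times. Row 12270 had its highest WT mean at 30 h, 2191 ± 312 CPM, after 1047 ± 217 CPM at 18 h and 1719 ± 250 CPM at 24 h (SD, n = 4). In KO its mean was 357 ± 69.8, 398 ± 87.6 and 342 ± 36.1 CPM at these times (SD, n = 4). WT thus climbed from 18 to 30 h while the KO level stayed within its spread, and these times share a library number within each genotype. At 36, 42 and 48 h, under other library numbers, the means were 434 ± 31.7, 920 ± 140 and 1798 ± 353 CPM in WT. In KO they were 139 ± 40.4, 317 ± 35.5 and 400 ± 220 CPM (SD, n = 4), so the KO mean also climbed there. None of these climbs was tested. The log2 change went from -1.56 (SE 0.18) at 18 h to -2.12 (SE 0.18) at 24 h and -2.69 (SE 0.18) at 30 h. The change at 30 h differed from the mean of 18 and 24 h by -0.85 (SE 0.22, edgeR adjusted p = 0.615), from the other 5 times by -0.85 (SE 0.20, edgeR adjusted p = 0.0965) and from 42 h by -1.15 (SE 0.25, edgeR adjusted p = 0.0681). None of these tests passed over all features.

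Row 15020 also had its highest WT mean at 30 h, at 918 ± 272 CPM against 474 ± 25.2 at 18 h and 568 ± 43.8 at 24 h (SD, n = 4). Its KO mean was highest at 30 h too, at 146 ± 19.5 CPM against 102 ± 21.2 and 117 ± 11.4 (SD, n = 4). Both genotypes thus had their top mean at the same time. Its log2 change was -2.17 (SE 0.18) at 18 h, -2.27 (SE 0.17) at 24 h and -2.67 (SE 0.16) at 30 h, and the difference of -0.44 (SE 0.21) between 30 h and the earlier times did not pass (edgeR adjusted p = 0.987). Nor did that of -0.49 (SE 0.19) from the other 5 times (edgeR adjusted p = 0.640).

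Row 23931 had log2 changes of 1.60 to 2.23 over the 6 times, with 1.92 at 30 h. Row 10986 had changes of 1.63 to 2.91, with 1.75 at 30 h and the highest at 48 h. In KO both rows had their lowest mean at 30 h, 232 ± 46.2 and 254 ± 28.4 CPM (SD, n = 4), against 265 to 350 and 314 to 379 CPM at the other times. Neither differed at 30 h from the other 5 times by the test of that difference (edgeR adjusted p = 0.973 and 0.817).

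**Figure D4:**
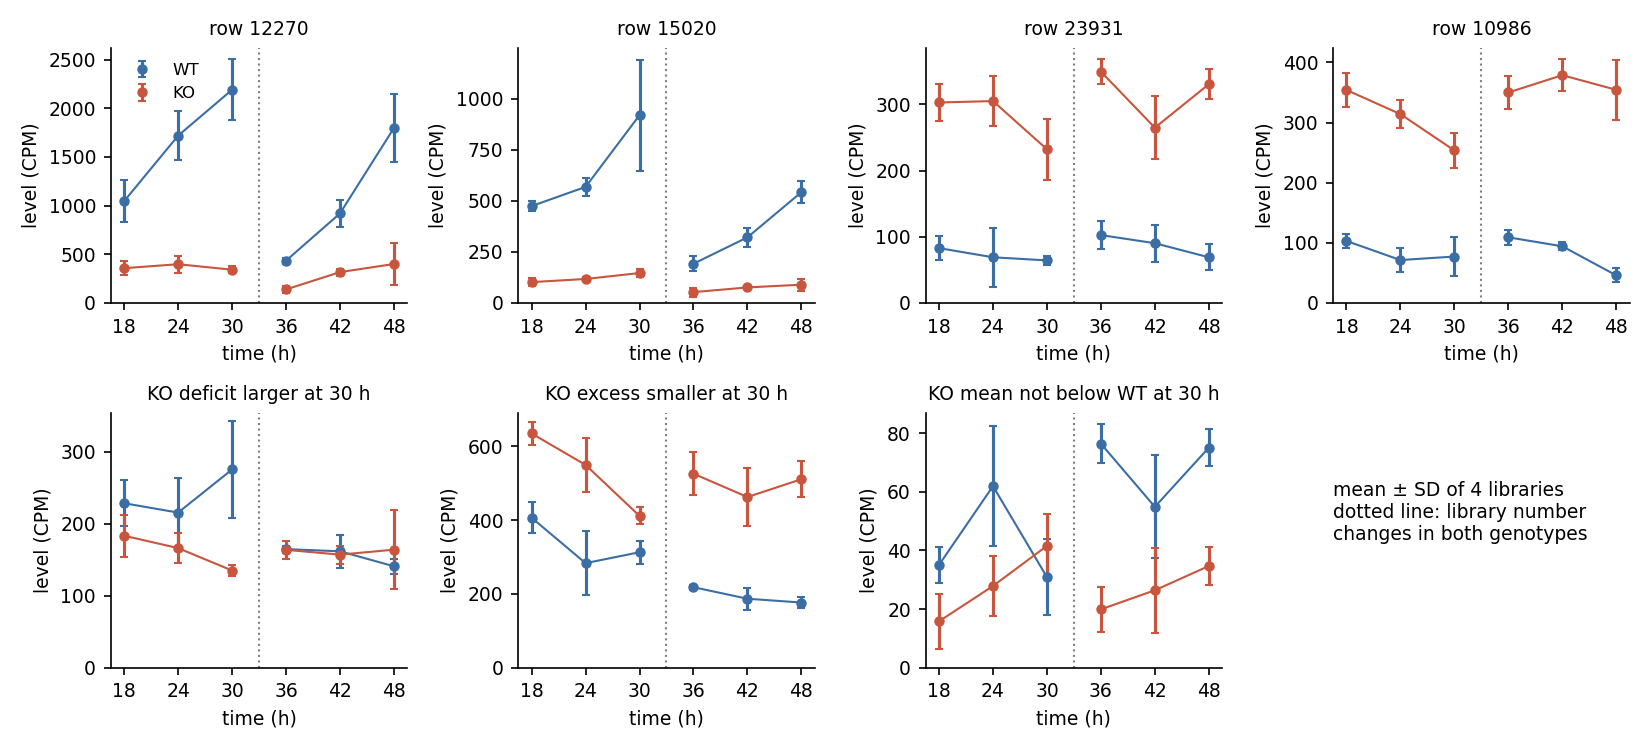
Mean level in CPM (vertical axes from 0) with SD of 4 libraries at each time in hours (horizontal axes) for WT and KO. The upper panels show the 4 numbered rows and the lower panels the 3 features whose change at 30 h differed from the other times. Lines are broken at the dotted line, where the library number changes in both genotypes. Row 12270 reaches 2191 CPM in WT at 30 h and stays at or below 400.4 CPM in KO at every time.

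How strongly each library carried the genotype pattern was measured with the log2 change over the other 5 times, whose group means use none of the 8 libraries. Across 3830 features with a mean log2 CPM of at least 6, the deviation of a library from the mean of all 8 was regressed on that change. The slopes were -0.18, -0.44, -0.54 and -0.47 in WT replicates 1 to 4, and 0.51, 0.43, 0.38 and 0.31 in KO replicates 1 to 4. The genotypes lay on opposite sides of 0, as a description across features with no test. Deviations from the mean of all 8 libraries balance out, so the 8 slopes could not all share a sign. WT replicate 1 lay nearest to the KO libraries.

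Single libraries set part of the count of calls. Without WT replicate 4, the deepest WT library, 427 of the 796 calls (53.6%) remained among 472. Without WT replicate 1, 424 were higher and 403 lower. WT replicate 4 was the WT library farthest from KO for 36.7% of the features called higher and 45.6% of those called lower, and WT replicate 1 for 10.3% and 6.6%. Among the KO libraries such shares ran from 19.4% to 29.3% of the higher features. For the lower ones they ran from 18.7% to 35.1%, the last in KO replicate 1. These shares cover only called features, which were picked with the values of these same libraries, and are no test. With all 8 libraries thinned to 171040 counts, 154 features were higher and 162 lower, so the number of calls depends on depth.

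**Figure D5:**
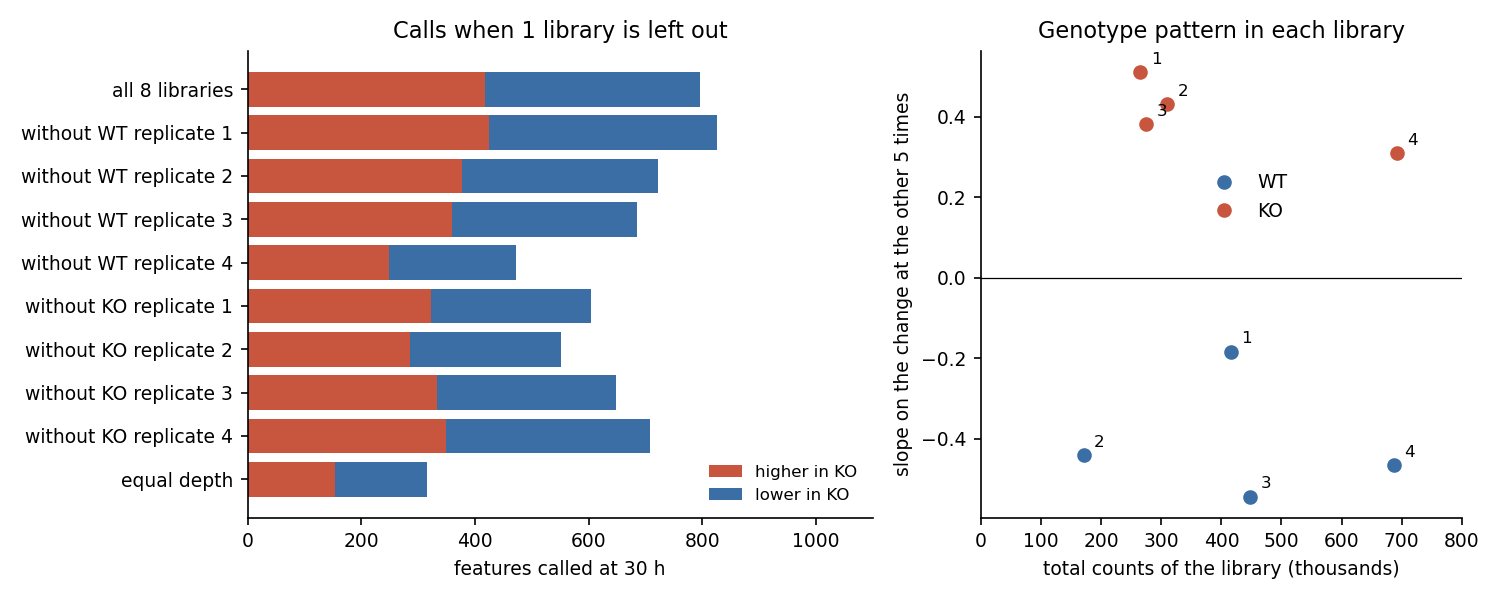
The left panel shows the number of features called higher (red) and lower (blue) in KO at 30 h with all 8 libraries, with each left out in turn, and at equal depth. The right panel shows the slope of each library on the change over the other 5 times (vertical axis) against its total counts (horizontal axis), with points labelled by replicate. Calls drop from 796 to 472 without WT replicate 4, and WT replicate 1 has the WT slope nearest to 0, at -0.18.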

How the data were processed

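The deposited values are whole-number counts, made per the file headers from alignments that were accepted, sorted and freed of duplicates. The submitters' processing notes name STAR 2.5.4b and mm10 (GRCm38). Counting tool, annotation, strand and use of molecular identifiers are not given in the sources used here. Of 180 columns, 48 matched a sample by library name and 132 were not used. The filter was edgeR filterByExpr (minimum count 10, minimum total 15). With edgeR 4.0.16 in R 4.3.3, quasi-likelihood tests with TMM factors were fitted to all 48 libraries in 12 groups (36 residual degrees of freedom), and p-values were Benjamini-Hochberg adjusted over 8617 features. DESeq2 1.42.0 and limma 3.58.1 (voom) were alternatives. CPM were computed from the counts. Tests between genotypes or times were two-sided, and the chi-square of replicate pairs took the upper tail. Only the main edgeR fit was also run on simulated data, for the contrasts at 30 h, over the other times and between times.

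The comparison, the lists and the tests were chosen with earlier results of these data known. Numbered rows are the 2 largest changes in each direction among called features with a count in all 8 libraries, a mean log2 CPM of at least 5 and no overlap between genotypes. Described without a number are the most abundant called features and those with the lowest p, or a call, in tests between times. The planned clock genes and cell type markers were not analysed here.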

Additional observations from a re-analysis of the deposited data

Results flagged for a closer look

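Sets of 4 libraries were screened for a value standing apart. This held for 2 of 30 sets, and chance alone gives about 1 in 20 (1.5 of these sets). KO replicate 4 had 691659 counts where the other KO libraries at 30 h had 265267 to 309572. The third feature whose change at 30 h differed from the other times was at 11.6 CPM in WT replicate 2, which is 2 counts, against 36.1 to 39.8 CPM in the other WT libraries.

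The difference between genotypes at 30 h departed from that over the other 5 times for 3 features (edgeR adjusted p = 0.0256 for each). The departure was -0.86 on the log2 scale for the feature that fell more at 30 h than at the other times. It was -0.74 for the feature that was least raised in KO at 30 h. It was 1.57 for the feature that was not lower in KO at 30 h.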

How the results depend on the processing

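Under every tool, scaling, filter and left-out library, rows 12270, 15020, 23931 and 10986 kept direction and call. Calls at 30 h (417 higher, 379 lower) became 269 higher in DESeq2 with 276 lower, 23 and 51 for changes beyond 1.5-fold, and 154 and 162 at equal depth. Leave-outs gave 194 to 424 higher and 183 to 403 lower. Leaving out replicate 2 of both genotypes gave 263 higher and leaving out WT replicate 4 gave 249 and 223. Thinning and leave-outs use fewer counts or samples by construction. For DESeq2 the cause was not tested. Among the 3 calls against the other 5 times, 0 remained against 1.5-fold or at equal depth, 7 features were called without the libraries under 100000 counts (none of them at 30 h), and leave-outs gave 0 to 4. The 0 calls against 42 h became 1 with DESeq2, robust edgeR, median-of-ratios factors, the stricter filter, the replicate block or equal depth, 2 with limma voom, 3 with library size only or no filter, and 10 without the shallow libraries; leave-outs gave 0 to 9, with 9 without WT replicate 3 and 6 without replicate 3 of both genotypes. The 0 calls against 18 and 24 h became 2 with no filter, and leave-outs gave 0 to 1, the 1 without KO replicate 4. The difference of -144 features at 20000 counts had an exact permutation p of 0.0571. Leave-outs gave 0.338 to 0.984 for the share of the 100 most abundant features and -0.037 to -0.022 for the TMM factor, both at an exact permutation p of 0.0286 without WT replicate 4.

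Replicate numbers are shared by the groups, and deviations of same-numbered WT and KO libraries correlated at 0.25, 0.04, -0.02 and 0.31. Libraries of different number correlated at -0.26 to 0.17, so the pairs of replicates 1 and 4 stood above that range. Not every library correlated best with its own number. The main fit assumed no pairing. With the replicate block, 422 features were higher and 381 lower. In the 8 libraries at 30 h alone, 313 were higher and 289 lower without the block and 448 and 402 with it. Chosen after seeing the data, separate fits of the 8 and the other 40 libraries changed the share of calls at 30 h also called over the other 5 times from 90.3% to 94.2%. All 796 calls remained among the 1001 made without the shallow libraries.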

Other observations

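Of the features called at 30 h and over the other 5 times, 1 had opposite signs, chosen here after its values were seen. At 30 h it was at 156 CPM on average in WT (105 to 180.0) and 216 CPM in KO (193 to 231), a log2 change of 0.53 (SE 0.18, edgeR adjusted p = 0.0466). Over the other times its change was -0.29 (SE 0.08, edgeR adjusted p = 0.00356). The test of the difference did not pass over all features (edgeR adjusted p = 0.125). With the 8 and the other 40 libraries fitted apart in edgeR, 0 features had opposite calls.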
